A study of Canis lupus familiaris with 13 samples.

Results

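The complement system is a cascade of blood and tissue proteins that tags targets and can puncture membranes. In the classical pathway the proteases C1R and C1S sit on the recognition protein built from C1QA, C1QB and C1QC, and C1S cuts C4 and C2. In the alternative pathway CFD cuts CFB that is bound to C3, and both routes meet at the cleavage of C3. C7 belongs to the terminal complex that inserts into membranes. SERPING1, CFI and CD55 restrain the cascade at the proteases, at the cleaved fragments and on the cell surface. Many of these proteins come from the liver, and fibroblasts, macrophages and fat cells are also known to make some of them.

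A set of 9 complement genes (C1R, C1S, CFD, C3, C7, CFB, CFI, SERPING1 and CD55) was followed across 13 untreated primary soft tissue sarcomas of dogs. These are malignant tumours of connective tissue. The 5 tumours labelled MET1 to MET5 form the metastatic group, and the 8 labelled NM1 to NM8 form the non-metastatic group, in which no metastasis was seen for at least 1 year. All were sampled without treatment. The labels give no breed, age or tumour subtype and do not say whether each tumour came from a separate dog, so the p-values below reflect only how much these 13 samples vary, which may be partly technical. Total RNA was read on an Affymetrix canine array, where each gene is covered by 1 or more sets of short probes (probe sets), and values are log2 intensities.

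The genes were chosen from the difference between these groups in these arrays and from their place in the cascade. Their metastatic minus non-metastatic values are therefore given as a description, and where calls of the fit over all probe sets are counted for them, nothing is read from the count. Of the 9 genes, 7 have a probe set named by the platform annotation, out of 15115 genes named on the array. CFB and CD55 have none and were not analysed here. The 7 genes have 25 probe sets: 2 for C1R, 4 for C1S, 5 for SERPING1, 6 for C3, 1 for CFD, 5 for CFI and 2 for C7. Each gene is led by its probe set of highest mean over the 13 samples. No filter on low values was applied, so all 25 are described.

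Array medians lay between 6.71 and 6.94. The lowest were those of NM1, NM3 and NM4 (6.74, 6.71 and 6.71), and all others were at 6.87 or above. The tissue label fits its markers: all 12 fibroblast and mesenchymal markers averaged above 7.16, and 6 of 6 epithelial markers did not. The value 7.16 is the highest that 36 bacterial spike-in probe sets gave in the 3 samples that carried no spike-in signal (NM1, NM3 and NM4), so a value at or below it is not told apart from a probe set without its target. The median of these values without target was 4.45. Spike-ins are bacterial transcripts added before labelling. Their signal was intact in 9 samples, the 5 metastatic ones and NM5 to NM8, and in NM2 it was degraded, with the 3′ end exceeding the 5′ end by 3.54. Comparisons were therefore repeated in the 9 intact samples. As a sign of RNA quality, the signal at the 3′ end of ACTB exceeded that at its 5′ end by 1.96 ± 0.59 (SD, n = 5) in the metastatic group, by 1.47 ± 0.92 (SD, n = 8) in the other group, and by only 0.39 to 0.88 in NM1, NM3 and NM4; degraded RNA raises this gap. Its part in the results was not tested beyond a fit with it as a covariate.

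C1R, C1S and CFD, the proteases at the head of the classical and alternative pathways, were the members with the lower levels in metastatic tumours. SERPING1, C3 and C7 differed by less than the spread between tumours, and CFI lay in between. In the limma fit over all 42924 probe sets, 3 of the 7 lead probe sets (C1R, C1S and CFD) passed an adjusted p of 0.05 in the lower direction and 0 in the higher one, where 3.34% of all probe sets passed lower and 1.56% higher. Over all 25 probe sets 7 passed lower, which are the 2 of C1R, the 4 of C1S and the 1 of CFD. These counts describe the contrast that chose the genes and support nothing. The median lead difference of the 7 genes was -1.32, and that of all probe sets was 0.05. In tissue RNA, fewer cells that make a transcript and less transcript per cell cannot be told apart.

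**Figure D1:**
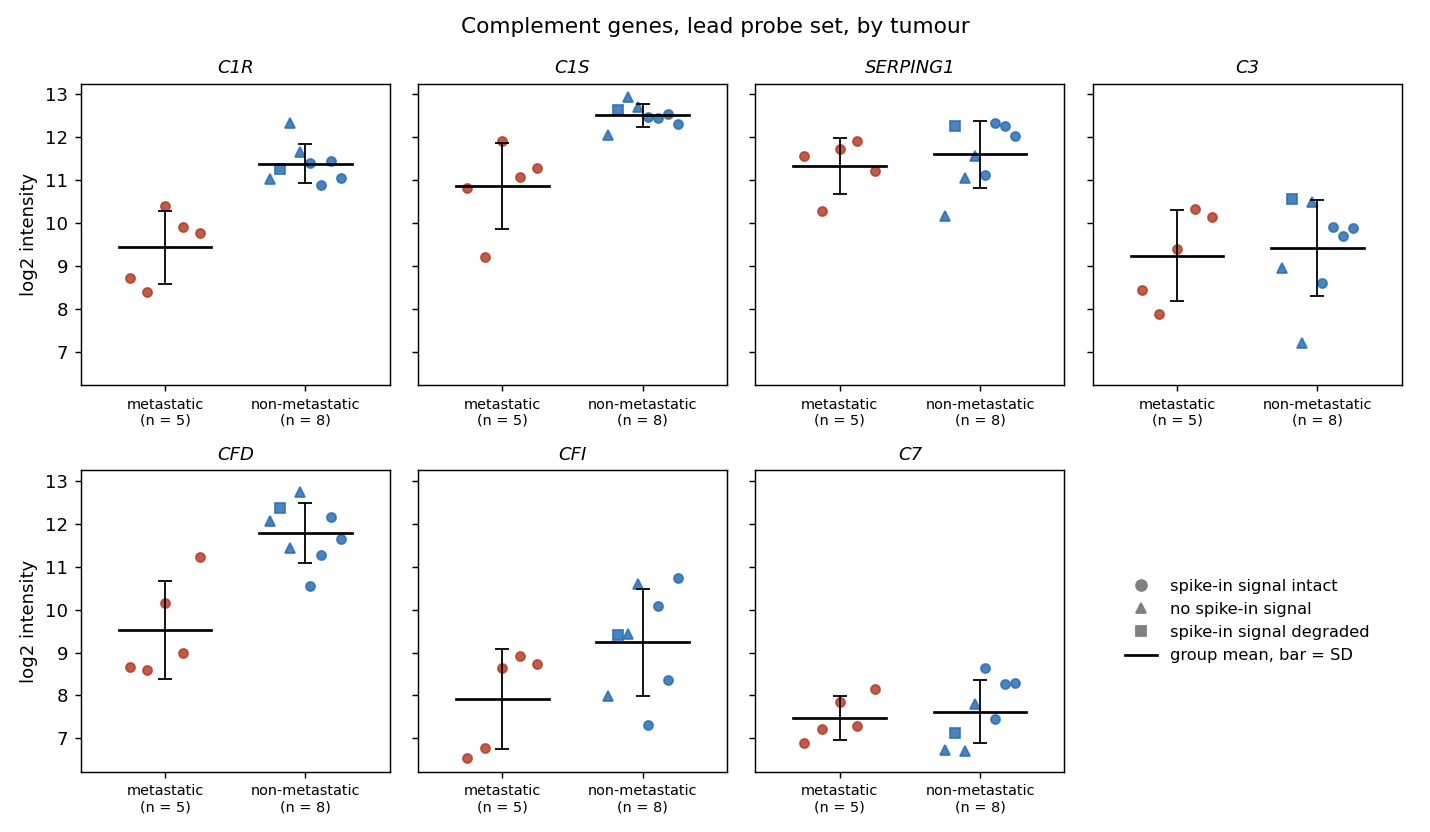
Log2 intensity of the lead probe set of 7 complement genes in each tumour, by group, with the group mean (line) and SD (bar); the point shape gives the state of the spike-in signal. All 5 metastatic tumours lie below all 8 non-metastatic ones for C1R and C1S, 4 of 5 do for CFD, and the groups overlap for SERPING1, C3, CFI and C7.

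C1R encodes the protease that activates C1S within the first complex of the classical pathway. Its lead probe set read 8.71, 8.38, 10.39, 9.91 and 9.77 in MET1 to MET5. The non-metastatic values ran from 10.89 (NM6) over a median of 11.34 to 12.34 (NM3). The groups did not overlap, and MET1 and MET2 were the lowest. Means were 9.43 ± 0.85 (SD, n = 5) and 11.38 ± 0.46 (n = 8), a difference of -1.95 ± 0.33 (SE), or 3.87-fold lower. The other probe set of C1R differed by -2.11 ± 0.48 (SE), and there NM2, at 8.91, lay below MET3, at 9.38.

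C1S encodes the protease that cuts C4 and C2. It read 10.81, 9.21, 11.91, 11.07 and 11.28 in MET1 to MET5, and between 12.05 (NM1) and 12.93 (NM3) with a median of 12.51 in non-metastatic tumours. Here too the groups did not overlap, MET2 was lowest and MET3 highest among the metastatic tumours. The means were 10.86 ± 1.01 (SD, n = 5) and 12.51 ± 0.27 (n = 8), a difference of -1.66 ± 0.33 (SE). The other 3 probe sets of C1S differed by -2.11 to -2.20, so the lead probe set gave the smallest of the 4 differences. Of all probe sets on the array 1.45% separated every metastatic from every non-metastatic sample in this direction, against 2 of the 7 lead probe sets (C1R and C1S).

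CFD encodes factor D, also known as adipsin, the protease that cuts factor B. Its single probe set read 8.67, 8.60, 10.15, 8.99 and 11.22 in MET1 to MET5. Non-metastatic values ran from 10.56 (NM5) over a median of 11.87 to 12.75 (NM4). MET5 was the exception among metastatic tumours, above NM5 and just below NM6 at 11.27. The means were 9.53 ± 1.13 (SD, n = 5) and 11.79 ± 0.70 (n = 8). The difference of -2.26 ± 0.45 (SE), or 4.79-fold lower, was the largest of the 7 lead differences, and it rests on 1 probe set.

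C3, the protein where the pathways meet, was alike in both groups but uneven within each. The lead probe set read 8.44, 7.87, 9.39, 10.33 and 10.15 in MET1 to MET5, and from 7.20 (NM3) over a median of 9.79 to 10.56 (NM2). The difference was -0.17 ± 0.56 (SE). Of the other 5 probe sets of C3, 2 were negative and 3 positive, from -0.25 to 0.66. The probe set at 0.66 ± 0.24 (SE) stood apart. It correlated with the lead at 0.31 over samples with group means removed, and it read 5.92 to 6.23 in NM1, NM3 and NM4 against 6.92 to 7.24 in NM5 to NM8. Its metastatic values, 7.16 to 7.64, are close to the level of probe sets without target.

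SERPING1 encodes the C1 inhibitor, the serpin that inactivates C1R and C1S. Its lead probe set read 11.57, 10.27, 11.72, 11.91 and 11.21 in MET1 to MET5. Non-metastatic values ran from 10.16 (NM1) over a median of 11.80 to 12.33 (NM6). Both ranges start near the same level, and the difference of -0.26 ± 0.38 (SE) was smaller than its error. All 5 probe sets of SERPING1 had negative differences, from -0.66 to -0.26. C1R and C1S were thus lower in metastatic tumours while the levels of their inhibitor overlapped between the groups, and the difference between these genes was not tested.

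CFI encodes factor I, which cuts the active fragments of C3 and C4. The lead probe set read 6.54, 6.77, 8.63, 8.93 and 8.74 in MET1 to MET5, and from 7.32 (NM5) over a median of 9.43 to 10.75 (NM8). MET1 and MET2 lay below every non-metastatic tumour and under 7.16, while the other metastatic tumours lay inside the non-metastatic range. The difference was -1.32 ± 0.62 (SE). The next brightest probe set of CFI did not share it, with 0.01 ± 0.46 (SE), and the remaining 3 differed by -0.90, -0.12 and -0.29. CFI therefore had no single value over its probe sets.

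C7 encodes a subunit of the membrane attack complex. Its lead probe set read 6.89, 7.22, 7.84, 7.28 and 8.15 in MET1 to MET5, and from 6.71 (NM3) over a median of 7.63 to 8.64 (NM5), a difference of -0.15 ± 0.35 (SE). The other probe set of C7 differed by -0.56 ± 0.39 (SE), with both group means below 7.16. The lead means of C7, 7.48 in metastatic and 7.62 in non-metastatic tumours, lie only a little above that highest value without target.

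**Figure D2:**
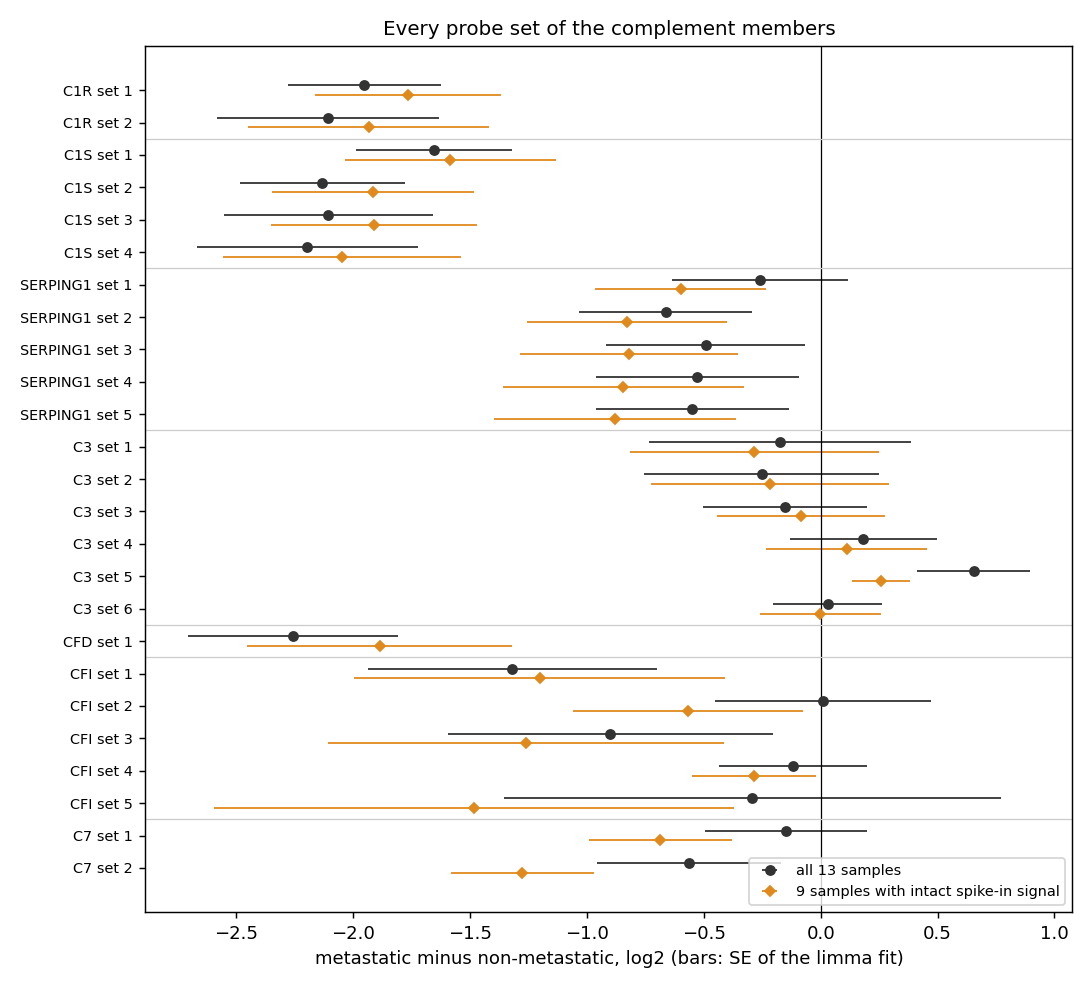
Metastatic minus non-metastatic difference of each of the 25 probe sets on the log2 scale, with SE bars from the limma fit, over all 13 samples (circles) and over the 9 samples with intact spike-in signal (diamonds); sets are numbered by falling mean level. All probe sets of C1R, C1S and CFD lie between -2.26 and -1.58 in both fits, and the sets of C3 lie around 0.

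Among the 9 samples with intact spike-in signal C1R, C1S and CFD were again lower, by smaller amounts. C1R differed by -1.77 ± 0.40 (SE), C1S by -1.58 ± 0.45 and CFD by -1.89 ± 0.57. All 5 metastatic values of C1R and of C1S were below all 4 of NM5 to NM8. Of the 25 member probe sets 0 passed the adjusted p of 0.05 in this limma fit, where 2.2% of all probe sets passed lower. The calls of C1R, C1S and CFD over 13 samples were thus not kept. These 9 samples were among those that chose the genes, so this too is a description. SERPING1 differed by -0.60 ± 0.37, C3 by -0.28 ± 0.53 and CFI by -1.20 ± 0.80. Of the leads C7 shifted most between the fits: it differed by -0.69 ± 0.31, and its other probe set by -1.28 ± 0.31.

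The members were also compared between non-metastatic tumours with intact spike-in signal (NM5 to NM8) and without it (NM1, NM3 and NM4). This is not the contrast that chose them, but the same tumours entered that choice, which favours genes of small spread within groups. It is therefore not fully independent of the choice, and no conclusion is drawn from the number of calls. None of the 7 lead probe sets passed (limma, adjusted over 42924 probe sets), while 15.8% of all probe sets were higher and 5.85% lower with spike-in signal. Of the 7 leads, 2 had an unadjusted p under 0.05, as had 37.3% of all probe sets. C1R, C1S and CFD differed by -0.48 ± 0.30 (SE, adjusted p = 0.286), -0.12 ± 0.21 (adjusted p = 0.701) and -0.67 ± 0.42 (adjusted p = 0.28). These 3 differences have the sign of the metastatic difference and are smaller. SERPING1 was 1.01 ± 0.40 (SE) higher with spike-in signal without passing (limma adjusted p = 0.107).

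Among the leads, C7 had the smallest adjusted p. Its lead probe set read 8.64, 7.45, 8.27 and 8.29 in NM5 to NM8 and 6.72, 6.71 and 7.80 in NM1, NM3 and NM4, 1.09 ± 0.36 (SE) higher (limma adjusted p = 0.0642). Its other probe set passed at 1.60 ± 0.37 (SE, adjusted p = 0.0212), where all of NM5 to NM8 lay above all of NM1, NM3 and NM4. That call was lost when NM1, NM3, NM5 or NM8 was left out (adjusted p from 0.0502 to 0.0699), and the lead passed when NM4 or NM6 was left out (adjusted p = 0.0274 and 0.0438). The divergent probe set of C3 also passed (1.04 ± 0.14, SE, adjusted p = 0.00485) and kept its call in each of the 7 fits without 1 sample. These 2 of the 25 probe sets, both higher, are no larger a share than the 15.8% of all probe sets that were higher. Samples without spike-in signal also had the lowest ACTB 3′ minus 5′ values, so the state of the spike-in and RNA quality cannot be told apart here.

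Probe sets of C1R and C1S separated from each other in the tumour with degraded spike-in signal. The lead of C1R exceeded its other probe set by 2.35 in NM2 and by 0.61 to 1.75 in the other 12 tumours. The lead of C1S exceeded its dimmest probe set by 3.49 in NM2 and by 0.93 to 2.66 elsewhere. NM2 also had the highest ACTB 3′ minus 5′ value, 3.14. The gap differed between the groups as well: for C1S it averaged 2.54 ± 0.19 (SD, n = 5) in metastatic tumours and 1.79 in the non-metastatic ones other than NM2, and for C1R 1.36 ± 0.27 and 1.04. These group differences were not tested. In NM5 to NM8, with intact spike-in signal, the gap read 2.17, 2.5, 1.91 and 1.73 for C1S. For C1R it read 1.31, 1.4, 0.98 and 1.06 there. The gap was smallest in NM1 and NM3, which had the lowest ACTB values. The part of RNA quality in the lower C1R and C1S was not tested beyond the ACTB covariate. C1R, C1S and CFD differed by -1.74, -1.51 and -2.18 with that covariate, against -1.95, -1.66 and -2.26 without it. The leads of C1R and C1S in NM2 (11.26 and 12.64) lay among the other non-metastatic tumours.

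With group means removed, C1R and C1S followed each other closely from tumour to tumour. Over the 13 samples Pearson's r was 0.84 and Spearman's rho 0.92, r was 0.77 without the 2 tumours farthest from the median of C1R, 0.86 in the 9 intact samples, 0.88 among metastatic and 0.82 among non-metastatic tumours. The RefSeq gene table of dog assembly UU_Cfam_GSD_1.0 lists C1S, C1R and C1RL as direct neighbours. Of 21 pairs of members this was the highest r, and the median was 0.42. SERPING1 and C3 had r = 0.63 (0.73 in the intact samples) and C3 and CFI r = 0.60 (0.83). C1R and C3 had r = 0.10 over all samples and 0.63 in the intact ones, with 0.82 among metastatic and -0.61 among non-metastatic tumours. These are descriptions over samples that share arrays and processing.

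**Figure D3:**
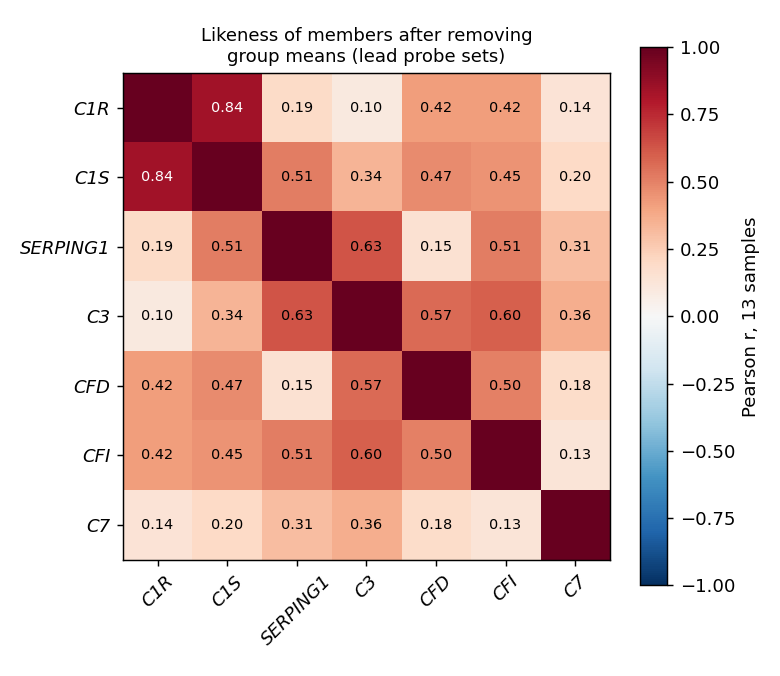
Pearson correlation between the lead probe sets of the 7 members over 13 samples after subtracting each group's mean; colour and number give r. C1R and C1S are most alike (0.84), followed by SERPING1 with C3 (0.63) and C3 with CFI (0.60), and C7 has 0.13 to 0.36 with the rest; in the 9 intact samples alone its values run from -0.25 to 0.64.

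For each member the 2 genes most like it were found among 2529 other genes of at least median level and an SD of at least 0.5, again with group means removed. The highest of 2529 correlations over 13 samples is raised by the search itself. The values are therefore a description without p, and no link between the genes is read from them. C1R was most like CAT (catalase, r = 0.90) and LIPA (lysosomal acid lipase, r = 0.87). C1S was most like PDCD6 (a calcium-binding protein, r = 0.92) and THBS1 (thrombospondin, r = 0.90, Spearman's rho 0.66). SERPING1 was most like MAOA (monoamine oxidase A, r = 0.90) and TNFSF10 (the death ligand TRAIL, r = 0.85), and C3 like NFIL3 (r = 0.85, or 0.66 in the intact samples) and TAGLN (r = 0.83). CFD was closest to PTGES (prostaglandin E synthase, r = 0.80) and ABCA5 (r = 0.78), CFI to TCN2 (r = 0.75) and JUNB (r = 0.74), and C7 to CXCL14 (r = 0.82) and SUPT3H (r = 0.77, or 0.48 in the intact samples). Between the groups TNFSF10 fell by 1.21 ± 0.30 (SE, limma adjusted p = 0.0378), a call lost in 10 of 13 fits without 1 sample, while the other 13 did not pass. LIPA, second in likeness to C1R within groups, differed between them by -0.03 ± 0.29 (SE).

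The rest of the pathway was read from a list of 62 complement genes by role, of which 44 were measured and 37 are no members. Of these 37, 0 rose and 1 fell (limma, adjusted over all probe sets), where 1.56% and 3.34% of all probe sets did. At an unadjusted p under 0.05, 2 of the 37 were higher and 1 lower, where 12% and 11.8% of all probe sets were. Their median difference was 0.06, against 0.05 over all probe sets. The one that fell was COLEC12, a collectin and scavenger receptor on cell membranes. It read 7.97, 7.45, 8.24, 6.45 and 8.36 in MET1 to MET5 and from 6.92 (NM2) over a median of 10.09 to 11.53 (NM3), a difference of -2.22 ± 0.61 (SE, adjusted p = 0.04998). The call sits on the threshold: it was lost in 12 of 13 fits without 1 sample (adjusted p from 0.061 to 0.109) and strengthened without NM2 (adjusted p = 0.00169). In the 9 intact samples, where 2.2% of all probe sets passed lower, the difference was -2.27 (adjusted p = 0.0182). Over all 13 samples the other probe set of COLEC12 differed by -1.98 without passing.

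The partners of C1R and C1S in the first complex did not pass. C1QA, C1QB and C1QC, which form the recognition protein and are made largely by macrophages, differed by -0.12 ± 0.38, -0.10 ± 0.49 and 0.05 ± 0.52 (SE), with limma adjusted p of 0.866, 0.913 and 0.961. The medians of C1QA were 11.10 and 11.12, and the groups overlapped. C2, a substrate of C1S, differed by 0.28 ± 0.34 (SE, adjusted p = 0.627). C1RL, a C1R-like protease and the neighbour of C1R, differed by -0.17 ± 0.11 (SE, adjusted p = 0.372) at a level below 7.16. The lectin pathway protease MASP1 differed by 0.41 ± 0.21 (adjusted p = 0.26), with COLEC10 and COLEC11 at 0.27 and 0.35, also without passing and all 3 at means below 7.16.

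In the other roles 0 of the measured genes that are no members passed: 1 of the alternative pathway, 6 terminal components, 5 soluble regulators, 4 membrane regulators and 11 receptors. CFP (properdin, which stabilises the alternative convertase) differed by 0.11 ± 0.14 (SE). Of the terminal components C5 came nearest, at 0.39 ± 0.11 (SE, limma adjusted p = 0.0625), with both means (5.61 and 5.22) below 7.16. Without NM2 it passed (0.42, adjusted p = 0.032). C9, C8A and C8G differed by 0.22, 0.09 and -0.07.

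Among soluble regulators CLU (clusterin, which blocks the terminal complex) differed by 1.60 ± 0.86 (SE, limma adjusted p = 0.267), with medians of 11.56 and 9.45 and overlapping groups. CPB2, VTN and C4BPB differed by 1.05, -0.21 and 0.11, all at means below 7.16, and CPB2 by only 0.34 in the intact samples. The membrane regulator CD59 differed by -0.33 ± 0.59 (SE) and ran from 7.91 to 11.99 in metastatic tumours, and CSMD3, CSMD2 and SUSD4 differed by 0.16, 0.08 and -0.06 below 7.16. Of the receptors, C5AR2, CALR, LRP1 and C5AR1 had the smallest p, at 0.34, -0.34, -0.46 and 0.28.

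**Figure D4:**
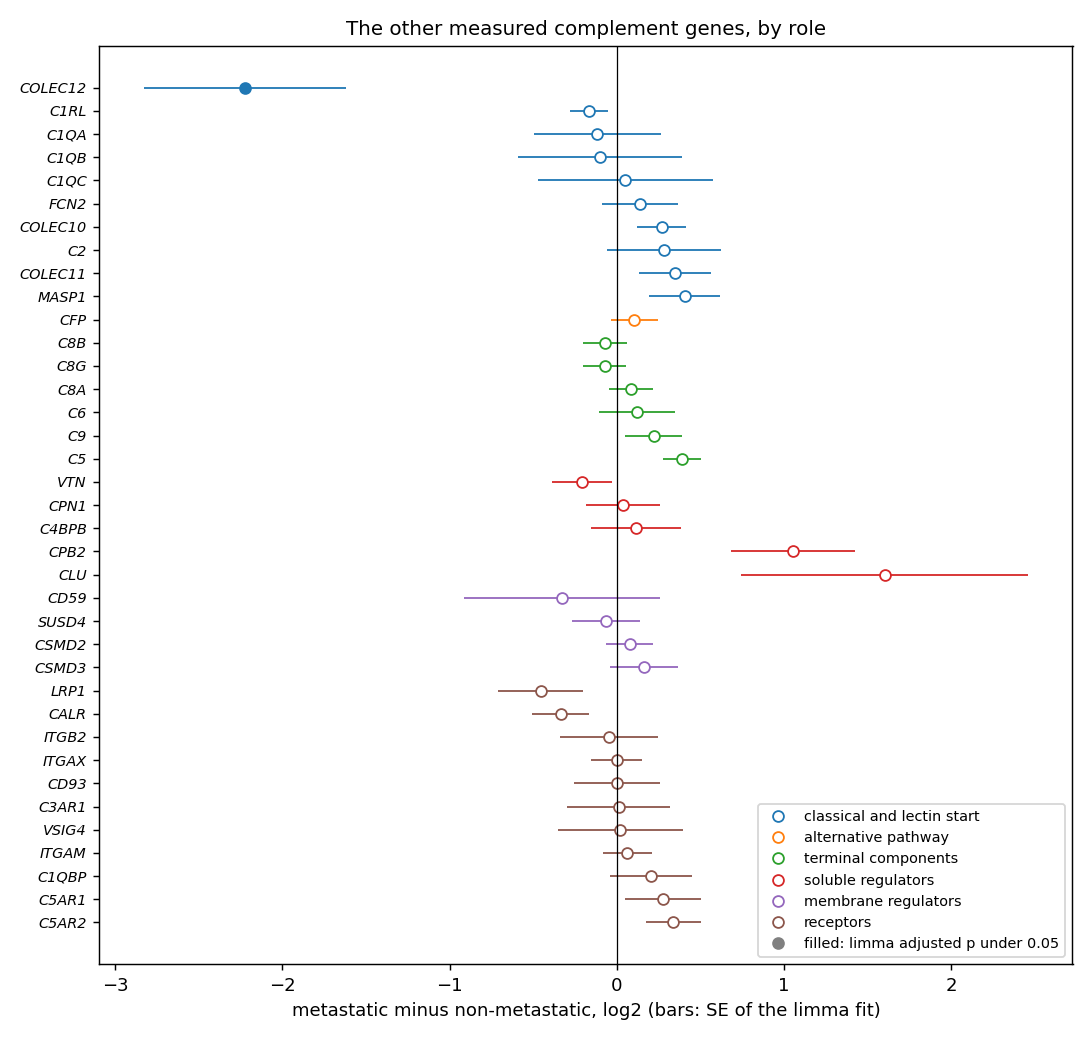
Metastatic minus non-metastatic difference (log2, with SE bars) of the 37 measured complement genes that are no members, at their lead probe sets and coloured by role; filled points passed limma's adjusted threshold of 0.05. COLEC12 is the only filled point, at -2.22, and the median of all 37 is 0.06.

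A list of cytokines, receptors and factors in pathways known to induce complement genes had 19 measured genes. Of these 0 rose and 1 fell, near the 3.34% of all probe sets that were lower. At an unadjusted p under 0.05 (limma), 3 were higher and 2 lower, where 12% and 11.8% of all probe sets were. IL6ST, the shared signalling receptor of the interleukin-6 family, read 5.82, 6.04, 5.93, 5.55 and 5.79 in MET1 to MET5 and 6.24 to 7.84 in non-metastatic tumours. The groups did not overlap, and it fell by 1.45 ± 0.23 (SE, limma adjusted p = 0.00508), kept the call in all 13 fits without 1 sample, and differed by -1.59 in the intact samples (adjusted p = 0.007). The metastatic values of IL6ST, with a mean of 5.83, all lie below 7.16, as do NM2 (6.24), NM5 (6.88) and NM4 (7.10). Its non-metastatic mean is 7.28. Values below 7.16 are not told apart from a probe set without its target, so neither detection nor the size is certain. IFNGR1, NFKB1 and IFNG differed by -0.92, 0.49 and 0.48 (limma adjusted p = 0.0666, 0.0883 and 0.117), and by -0.80, 0.24 and 0.19 in the intact samples. Both means of IFNG (6.75 and 6.27) lie below 7.16. The other 2 probe sets of NFKB1 differed by -0.06 and 0.16, and the other set of IFNGR1 by -0.35. IFNGR1 passed without MET3 or NM2 (-1.10 and -1.03). IL6 itself ranged from 4.10 to 11.41 and differed by 0.53 ± 1.26 (SE).

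Markers of cells that could supply these transcripts were read beside them. Of 12 fibroblast markers 3 fell, DCN by 1.28, FAP by 1.58 and THY1 by 1.41 (limma adjusted p = 0.00429, 0.0421 and 0.0425), and 0 rose, where 3.34% of all probe sets passed lower. Of the 12, 9 had negative and 3 positive differences. The positive ones were LUM at 1.82 ± 1.07 (SE), PDGFRB at 0.64 ± 0.43 and COL1A1 at 0.01, none passing. Of the negative ones PI16 was the largest, at -2.36 without passing (limma adjusted p = 0.0896). In the intact samples DCN alone passed (adjusted p = 0.0346, against 0.174 for FAP and 0.133 for THY1). The calls of FAP and of THY1 were each lost in 10 of 13 fits without 1 sample, and that of DCN in 0. The mean level of the fibroblast list was 10.71 to 11.67 in metastatic and 10.94 to 12.09 in non-metastatic tumours. Their part in the lower C1R, C1S and CFD was not tested. For adipocytes, a known source of CFD, 0 of 11 markers passed, and the list level was 6.02 to 7.51 against 6.19 to 7.11. The 11 differences ran from -0.91 (PPARG) to 1.06 (FABP4), with PLIN1 at 0.05 and ADIPOQ at 0.14. Of the 11, 5 averaged at or below 7.16, PLIN1 among them. The part of fat cells in the lower CFD was not tested.

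For hepatocytes 0 of 10 markers passed and 7 averaged below 7.16, ALB among them, at list levels of 6.81 to 7.02 against 6.16 to 7.11. For macrophages 0 of 12 passed, at 7.46 to 9.55 against 7.90 to 9.32. T and NK cell (11), B cell (7), neutrophil (7), endothelial (10) and skeletal muscle (9) markers had 0 passing genes each. The skeletal muscle markers were all positive, from 0.21 to 1.41, with a mean list level of 7.43 in metastatic and 6.88 in non-metastatic tumours. Their part in the results was not tested. Of 6 epithelial markers 1 fell, KRT8 by 3.34 (limma adjusted p = 0.0468), with both means below 7.16 and the call lost in 10 of 13 fits without 1 sample.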

How the data were processed

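The authors deposited 1 table of processed log2 values for 13 arrays. Extraction was on silica columns and labelling by 1 cycle of 3′ in vitro transcription with biotin, per the labels' protocols. Neither the software nor its background correction and normalization is stated in the labels. The log2 scale was inferred from values of 0 to 14.33. Values were used as deposited.

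Of 43035 probe sets, 111 controls were left out, leaving 42924. Genes came from the platform annotation, which names 1 gene for 29254 of these, several for 439 (not named here) and none for 13231. The fit, over every probe set, used limma 3.58.1 (R 4.3.3; lmFit, eBayes, group as the only term, two-sided, Benjamini-Hochberg over all 42924, threshold 0.05), checked on simulated data. Other values used Python 3.11.15, numpy 2.4.6, pandas 2.3.3, scipy 1.17.1 and matplotlib 3.10.9. Spike-in signal was called absent under a mean 3′ level of 6 and degraded where 3′ exceeded 5′ by over 2. Named were all members, other complement genes past the threshold or among the 4 smallest p of a role, and the 2 most similar genes per member; C1QA, C1QB, C1QC, C2, and the inducers and cell markers were named after their values were seen. Members, lists and the spike-in split were chosen with earlier results of these data known. No 2 samples were duplicates (largest correlation 0.9748). Alternatives were other normalizations, filters, samples, covariates and a replicate block.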

Additional observations from a re-analysis of the deposited data

Results flagged for a closer look

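COLEC12 read 6.92 in NM2, far below the other 7 non-metastatic tumours, of which the nearest was at 9.56. The gap was 0.573 of the group's range, above the critical 0.526. NM2 is the tumour with degraded spike-in signal and the highest ACTB 3′ minus 5′ value (3.14), and their part in this value was not tested. Among 18 groups examined (7 members, COLEC12 and IL6ST in both groups) this was the only such sample, and chance gives about 1 in 20.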

How the results depend on the processing

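The number of arrays limits the precision. The differences of C1R, C1S, CFD and CFI stayed negative under all 21 alternatives, between -2.19 and -1.69, -1.92 and -1.24, -2.68 and -1.89, and -1.59 and -0.12. SERPING1 and C3 were negative in 19 and 17 of them. After rounding C7 was below 0 in 18, at -0.00 without MET1 and without NM5, and at 0.08 with the replicate block. The value of -0.12 for CFI is that of its probe set of smallest SE, and C7 was at -0.69 in the intact samples and with the spike-in class as a block. The alternatives are not all separate. The spike-in class as a block gave each member the value of the intact samples, and the level filter left each lead difference unchanged. The probe set of smallest SE is the lead itself for C1R, C1S, CFD and C7. The probe set of CFI that differed by 0.01 is not among the alternatives. The members were chosen from this contrast, so their signs are a description. Over all probe sets 669 were higher and 1435 lower. These counts were 248 and 944 in the intact samples, 410 higher with the ACTB covariate, 400 higher with the spike-in class as a block, 431 higher for probe sets at or above the median level, and 255 and 478 with a replicate block. Same-numbered samples share only a number (correlations of their deviations from -0.016 to 0.054). Leaving out 1 sample gave 234 to 1731 higher and 622 to 2747 lower. The lower complement count of 1 (COLEC12) became 0 with quantile normalization, median centring, the ACTB covariate or the replicate block (-2.11, -2.28, -1.72 and -2.25) and was 0 to 1 when 1 sample was left out, where the higher count was 0 to 1. The inducer count (IL6ST) became 0 with the replicate block (-1.26, adjusted p = 0.0592) and with the level filter, which removes IL6ST, and was 1 to 2 when 1 sample was left out. Quantile normalization made 1 inducer higher (NFKB1, 0.63). The difference of C7 between samples with and without spike-in signal was 0.90 to 1.45 when 1 sample was left out. The causes were not tested.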
